A study of Mus musculus with 27 samples.

Results

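The step from 5 h to 24 h of untreated blast culture (BC) was measured on 4 arrays, 2 for each time, of 27 in the series. They were chosen by their labels alone, as blast cultures of FLK1+ cells that had received no doxycycline (DOX), and all genes on the array were examined. The cells came from a mouse ESC line that carries a Flag-tagged dominant-negative FOS (dnFOS) cassette behind a DOX-inducible promoter at the Hprt locus. The line was derived from A2lox ESCs by G418 selection and picking of clones, on feeder cells, so that every culture carries the cassette, which was not induced in the untreated ones. ESCs were grown as embryoid bodies for 3.75 days, FLK1+ cells were purified with magnetic beads, and complete cultures were lysed after 5 h or 24 h for RNA. The freshly purified FLK1+ cells (0 h, 2 arrays) and the cultures given 1 µg/ml DOX (2 arrays at 5 h and 2 at 24 h) are used only where a gene of this step is set beside them.

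FLK1, encoded by Kdr, is the VEGF receptor that marks lateral and extra-embryonic mesoderm. FLK1+ cells from early embryoid bodies hold precursors, known as hemangioblasts, whose progeny include blood, endothelium and the smooth muscle (SM) of vessels. In blast culture, with VEGF and IL-6 in the medium, such cells leave the primitive streak programme, pass through hemogenic endothelium, and then release blood cells, while other cells of the dish become smooth muscle. ETV2 is the ETS factor that opens the endothelial and blood programme, and its expression is known to be brief.

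Each level below is a log2 signal from which the 75th percentile of its own array was subtracted, and differences are given as log2 fold changes, 24 h minus 5 h, with their standard error (SE). A gene was tested where its probe was well above background on both arrays of at least 1 time, and was called at an adjusted p (limma, Benjamini-Hochberg) under 0.05 with at least a 2-fold change. Where a gene was above background on neither array of a time, its change is given below as a bound. The adjusted p beside a bound belongs to the fitted difference, which uses signal below background. It does not test the bound, and such a call can rest on signal that was not measured. On the 4 arrays this percentile lay between 371 and 636 (arbitrary units), the share of probes well above background was 53.2% to 66.9%, and replicates correlated across probes with r = 0.966 at 5 h and 0.967 at 24 h. Nothing in the labels says whether replicates came from separate differentiations, so the spread between arrays may be technical. The SE and p-values rest on the spread within all groups of the 27 arrays fitted together, other cell populations included, and not on these 4 arrays alone. For Cdh5, for example, the SD was 0.16 at 5 h and 0.18 at 24 h, and the SE of the difference was 1.53. The 5 h replicate 1 array was alone on its slide, 24 h replicate 1 lay on a slide with DOX-treated cultures, and replicate 2 of both times shared a slide. The part of the slide in the results was not tested beyond the values given below. The 4 markers of FLK1+ blast culture cells, Kdr, Pdgfra, Etv2 and Tal1, were well above background on all 4 arrays. Hprt stood at 2.61 and 1.96 at 5 h and at 0.68 and 1.39 at 24 h, a difference of -1.25 that did not pass the test (adjusted p = 0.449, and 0.0149 in the authors' processed values).

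Of 23439 genes tested, 130 were called higher at 24 h, which is 0.555%, and 207 were called lower, which is 0.883%. All 337 had both 24 h arrays on one side of both 5 h arrays. This follows in large part from the call, which used the same arrays, and is no further support. Without regard to the test, both 24 h arrays lay above both 5 h arrays for 21.7% of the genes tested and below them for 24%. Called genes with a symbol numbered 104 higher and 178 lower. The median log2 fold change was 3.51 among genes called higher and -3.47 among genes called lower, against 0.04 over all genes tested. With genes above background on neither array of a time set at their bound, these medians were 3.14 and -3.15. The share of lower calls was 61.4% here, 69.4% with quantile normalization and 79.9% when arrays were scaled by their median, which moved the median of all genes to -0.30. It was 70.1% in the authors' processed values, where other steps may differ too. With 1 array left out it ranged from 29.5%, without 5 h replicate 2, to 51.6%, without 5 h replicate 1.

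**Figure D1:**
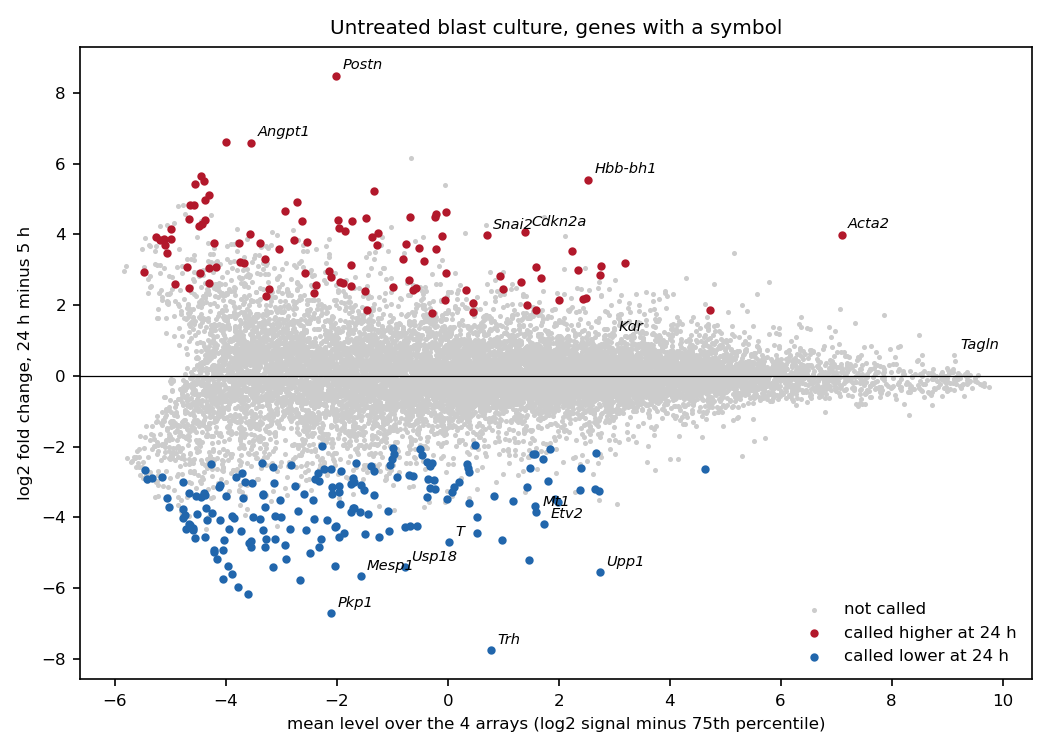
Log2 fold change from 5 h to 24 h (vertical axis) against the mean level over the 4 untreated arrays (horizontal axis, log2 signal relative to the 75th percentile), for genes with a symbol. Red and blue points are the 104 genes called higher and the 178 called lower, grey points were not called, and Postn and Trh stand at the upper and lower extremes.

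Each call rested on few arrays. With 1 array left out, its time had a single array and no spread of its own, and the test took the spread of the remaining groups as that of this array, an assumption that could not be checked. Without 5 h replicate 1, 15 genes were called higher and 16 lower, of which 15 and 15 were among the reported calls. Without 24 h replicate 2 there were 19 and 16, with 9 and 16 shared. Without 5 h replicate 2 there were 239 and 100, with 62 and 89 shared, and without 24 h replicate 1 there were 117 and 92, with 56 and 86 shared. With any 1 array left out, 20 of the 337 genes stayed called, 8 of them higher and 12 lower. They are Angpt1, Cavin2, Cdkn2a, Gucy1b1, Postn, Trh, Pkp1, Hoxb1, Iqsec3, Pcdh8, Stac, Usp18 and Krt79, described below, and Amhr2, Ampd1, Aqp3, Cxcr6, Dclk3, Slc16a4 and Slc44a5.

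Genes of the primitive streak and of nascent mesoderm were among those that fell. Of 28 tested members of the mesoderm and hemangioblast list, 7 were called lower and none higher (25% of the list), the median log2 fold change was -0.78, and both 24 h arrays lay below both 5 h arrays for 15 members and above them for 5. The summed linear signal of the 30 list genes, which the brightest members set, was 187 and 187 at 5 h and 214 and 221 at 24 h. Mesp1, the bHLH factor of early cardiovascular mesoderm, stood at 1.57 and 0.95 at 5 h and at -4.32 and -4.49 at 24 h, where 1 of 2 arrays was above background (-5.67, SE 1.16, adjusted p = 0.0176). Gsc, the homeobox gene of the organizer, stood at 0.12 and -0.08 and then at -4.17 and -5.82, where 1 of 2 arrays was above background (-5.02, SE 0.89, adjusted p = 0.00742). T, the T-box gene Brachyury that marks the streak, went from 2.39 and 2.36 to -1.53 and -3.10 (-4.69, SE 1.14, adjusted p = 0.0448). In each of these genes the lower 5 h array was above the higher 24 h array by a wide margin, and the 0 h mean was higher still, at 5.24, 3.60 and 4.10.

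Etv2 fell from 3.52 and 4.15 at 5 h to -0.02 and -0.68 at 24 h (-4.18, SE 0.80, adjusted p = 0.0119), and its 0 h mean was 5.06. Dll1, a Notch ligand of presomitic mesoderm, fell by 4.05 (adjusted p = 0.0345, above background on 1 of 2 arrays at 24 h), Cdx1, a caudal-type homeobox gene, by 3.28 (adjusted p = 0.0331), and Lhx1, a LIM homeobox gene of early mesoderm, by 2.21 (adjusted p = 0.0411). Both other streak factors Eomes (-2.44, adjusted p = 0.0569) and Mixl1 (-3.34, adjusted p = 0.181, above background on 1 of 2 arrays at 24 h) had non-overlapping arrays but did not pass. Eomes passed under 7 alternatives (adjusted p from 0.00357 to 0.0336) and Mixl1 in the authors' processed values (0.0126) and with array quality weights (0.0398). Each of the calls was lost without at least 2 of the arrays. The adjusted p rose to 0.343 for T, 0.231 for Mesp1, 0.11 for Gsc, 0.102 for Etv2, 0.378 for Dll1, 0.338 for Cdx1 and 0.327 for Lhx1 without 5 h replicate 1, and to 0.406 for T, 0.199 for Mesp1, 0.187 for Gsc, 0.192 for Etv2, 0.403 for Dll1, 0.356 for Cdx1 and 0.298 for Lhx1 without 24 h replicate 2. It was 0.11 for T, 0.0634 for Etv2, 0.0672 for Dll1, 0.074 for Cdx1 and 0.104 for Lhx1 without 5 h replicate 2, and 0.0762 for T, 0.0745 for Mesp1, 0.0671 for Cdx1 and 0.169 for Lhx1 without 24 h replicate 1. In bulk RNA of a whole culture, fewer cells of a type and less RNA per cell cannot be told apart, here and in all groups that follow.

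**Figure D2:**
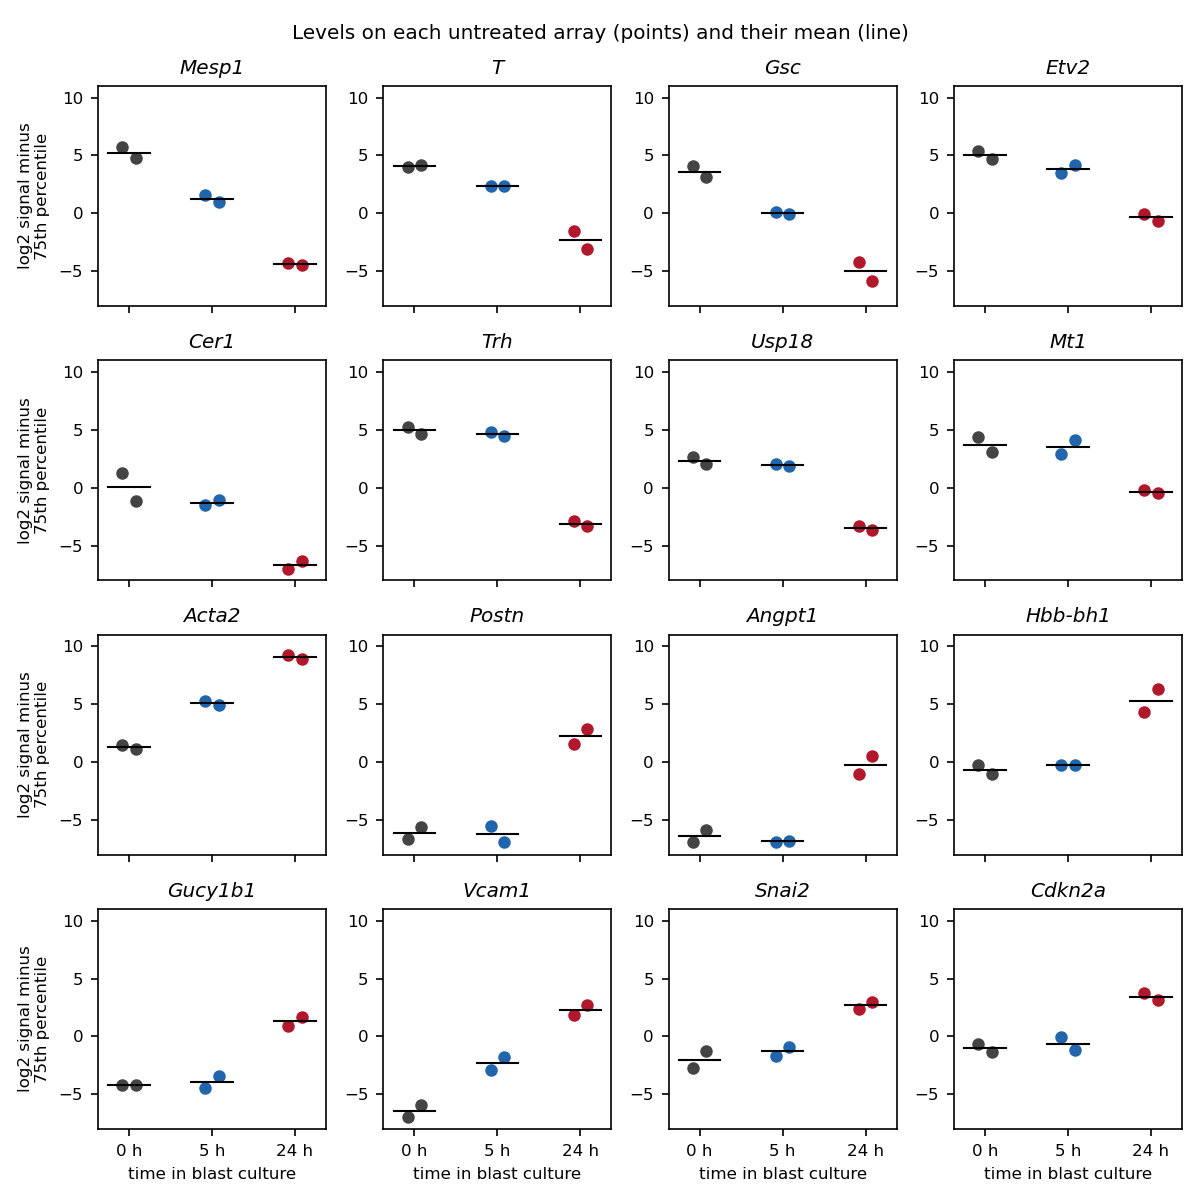
Levels of 16 genes (vertical axis, log2 signal relative to the 75th percentile) at 0 h, 5 h and 24 h of untreated blast culture; points are the 2 arrays of each time and lines their mean. In each panel the 5 h and the 24 h arrays do not overlap, and in Trh, Usp18 and Mt1 the 5 h level is near that at 0 h.

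Some genes of signalling pathways also fell. TGF-beta and BMP signals, Wnt signals and Notch signals pattern the streak and its derivatives. Of 35 tested TGF-beta and BMP genes, 4 were called lower and none higher. They were Cer1, which encodes the secreted Nodal and BMP antagonist Cerberus, the Nodal antagonist Lefty2, the BMP antagonist Grem1 and the ligand Bmp7. Lefty2 stood at 3.32 and 1.73 at 5 h and at -0.85 and -2.07 at 24 h (-3.99, SE 0.59, adjusted p = 0.00235). Cer1 stood at -1.49 and -1.08 at 5 h and was not well above background at 24 h, so that it was at least 14.6-fold lower (adjusted p = 0.0151). Grem1, likewise not above background at 24 h, was at least 9.68-fold lower (adjusted p = 0.00297), and Bmp7 fell by 3.13 (adjusted p = 0.0495). How many of the 35 tested genes encode inhibitors was not counted, so nothing is read from the 3 inhibitors among these 4.

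Of 30 tested Wnt genes, 3 were called lower and none higher, namely the ligand Wnt5b and the secreted frizzled-related proteins Frzb and Sfrp5, which bind Wnt ligands. Wnt5b stood at 3.96 and 2.86 at 5 h and at 0.27 and -0.80 at 24 h (-3.68, SE 0.58, adjusted p = 0.00297). Frzb fell by 3.80 (adjusted p = 0.0239) and Sfrp5 by 3.60 (adjusted p = 0.0492). Among 17 Notch genes the ligands Dll1 and Jag2 were called lower and none higher, with Jag2 at -1.98 (SE 0.49, adjusted p = 0.0487). The list medians were -0.32 for TGF-beta and BMP, -0.51 for Wnt and -0.83 for Notch. Both 24 h arrays lay below both 5 h arrays for 17, 14 and 8 members and above them for 8, 8 and 3. Over all genes tested these shares were 24% below and 21.7% above. Grem1, Sfrp5 and Jag2 had been lower at 0 h, at means of -4.17, -0.49 and -2.63, than at 5 h, at -1.54, 2.18 and -1.29. With single arrays left out, the adjusted p was 0.0734 for Lefty2, 0.139 for Cer1, 0.102 for Grem1, 0.387 for Bmp7, 0.0998 for Wnt5b, 0.281 for Frzb, 0.521 for Sfrp5 and 0.389 for Jag2 without 5 h replicate 1, and 0.0664 for Lefty2, 0.122 for Cer1, 0.0963 for Grem1, 0.356 for Bmp7, 0.0963 for Wnt5b, 0.222 for Frzb, 0.427 for Sfrp5 and 0.256 for Jag2 without 24 h replicate 2. It was 0.0655 for Cer1, 0.106 for Bmp7, 0.0574 for Frzb, 0.0768 for Sfrp5 and 0.102 for Jag2 without 5 h replicate 2, and 0.0951 for Cer1, 0.151 for Bmp7, 0.109 for Frzb, 0.0702 for Sfrp5 and 0.26 for Jag2 without 24 h replicate 1.

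Pluripotency and epiblast genes did not pass. None of 25 tested members was called, although their median of -1.15 was the lowest of the lists and both 24 h arrays lay below both 5 h arrays for 15 of them and above them for 5. Pou5f1, which encodes OCT4, stood at 1.99 and 1.22 at 5 h and at -0.68 and -2.61 at 24 h (-3.25, 95% interval -5.30 to -1.19, adjusted p = 0.136). Its adjusted p was 0.0382 with the normexp background correction, 0.0494 with a replicate block and 0.0138 with array quality weights. Nanog was near no difference at 0.25 (95% interval -1.63 to 2.13), and its sign turned under other settings. Sox2, which encodes a partner of OCT4, stood at -2.03 and -3.25 at 5 h and at -1.29 and -0.87 at 24 h, a difference upwards of 1.56 with arrays that did not overlap (95% interval -0.85 to 3.97, adjusted p = 0.746).

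By fitted change, the falls were headed by genes outside these lists. Trh, which encodes the precursor of thyrotropin-releasing hormone, stood at 4.82 and 4.48 at 5 h, close to its 0 h mean of 4.95, and at -2.91 and -3.30 at 24 h (-7.75, SE 0.77, adjusted p = 7.21e-05). Pkp1, which encodes the desmosomal protein plakophilin 1, stood at 1.47 and 1.02 at 5 h and at -4.60 and -6.30 at 24 h, where 1 of 2 arrays was above background (-6.69, SE 0.65, adjusted p = 7.21e-05). Both kept their call with any 1 array left out. The rest of the first 10 falls by fitted change were Bnc1, Iqsec3, Pcdh8, Stac, Mesp1, Hoxb1, Upp1 and Usp18. Of these, Bnc1, Iqsec3, Pcdh8, Stac and Hoxb1 were above background on neither 24 h array, so that their size is only bounded and the order is not established. Asb4, above background on all 4 arrays and named after its values were seen, fell 36.6-fold (adjusted p = 0.0038, and 0.0697 without 5 h replicate 1), but its other tested probe gave a log2 fold change of -1.59. Pcdh8, a protocadherin of paraxial mesoderm, was at least 41.1-fold lower (adjusted p = 0.00237), and Bnc1, a zinc finger gene of keratinocytes and germ cells, at least 24.9-fold lower (adjusted p = 0.0463).

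Iqsec3 and Stac were unlike the streak genes in their course. Iqsec3 had a 0 h mean of -6.07, stood at -0.88 and -0.74 at 5 h, and was not above background at 24 h, at least 20.2-fold lower (adjusted p = 0.00237). Stac had a 0 h mean of -6.24, stood at -1.45 and -0.92 at 5 h, and was at least 15.6-fold lower at 24 h (adjusted p = 0.00297). Both were thus high at 5 h alone among the 3 untreated times. Pcdh8, Iqsec3 and Stac kept their call with any 1 array left out. Upp1, which encodes uridine phosphorylase 1, stood at 6.22 and 4.80 at 5 h and at 0.72 and -0.77 at 24 h (-5.54, SE 0.79, adjusted p = 0.00201). Leaving out arrays one at a time raised the adjusted p to 0.301 for Bnc1 and 0.0589 for Upp1 without 5 h replicate 1, and to 0.281 for Bnc1 and 0.0541 for Upp1 without 24 h replicate 2. It was 0.131 for Bnc1 without 5 h replicate 2, and 0.196 for Bnc1 without 24 h replicate 1.

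Of the 207 genes called lower, 92 (44.4%) had a 5 h mean at least 2-fold above the 0 h mean, against 15.2% of all genes tested. A further 71 (34.3%) were within 2-fold of it, against 68.6%, and 44 (21.3%) were at least 2-fold below it, against 16.2%. Among those 92, 46 (50%) were back within 2-fold of the 0 h mean at 24 h, against 40% of the genes tested that stood as high at 5 h. The 5 h level helped to choose the called genes, so nothing is read from these shares. A few of the 92 are given singly. They were picked after their values were seen, are not a list and were not tested as a group. Krt79, a type II keratin gene, had a 0 h mean of -0.01, stood at 3.49 and 3.85 at 5 h and at 0.32 and 0.08 at 24 h (-3.47, SE 0.47, adjusted p = 0.00157), and kept its call with any 1 array left out. Sbsn and Dmkn, neighbours in the suprabasin and dermokine locus of the epidermis, fell by 3.25 (adjusted p = 0.00423) and 4.45 (adjusted p = 0.0206), from 0 h means of 2.07 and -0.27 through 5 h means of 4.35 and 2.76. Sfn, which encodes the 14-3-3 protein stratifin, fell by 2.21 (adjusted p = 0.0435), and Lamb3, a laminin chain of epithelial basement membrane, by 3.16 (adjusted p = 0.0313). Among fits that lacked 1 array, the adjusted p reached 0.116 for Sbsn, 0.179 for Dmkn, 0.596 for Sfn and 0.309 for Lamb3 without 5 h replicate 1, and 0.132 for Sbsn, 0.23 for Dmkn, 0.412 for Sfn and 0.272 for Lamb3 without 24 h replicate 2. It was 0.0782 for Dmkn and 0.0782 for Lamb3 without 5 h replicate 2, and 0.0773 for Dmkn, 0.0796 for Sfn and 0.124 for Lamb3 without 24 h replicate 1.

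Of 29 keratin genes tested, 2 were called lower, Krt76 and Krt79, and none higher, and their median was 0.27. The neural and surface ectoderm list had no call among 14 members and a median of 0.33, with both 24 h arrays above both 5 h arrays for 4 members and below them for 3. The summed linear signal of the neural markers Sox1, Pax6 and Tubb3 was 3.06 and 3.48 at 5 h and 18.1 and 17.2 at 24 h. Nearly all of it was Tubb3, a neuronal beta-tubulin gene, which stood at 1.59 and 1.76 and then at 4.17 and 4.09 and was not called (2.45, 95% interval -1.07 to 5.98, adjusted p = 0.71). The part of neural cells in the genes called higher was not tested. Il11, a cytokine gene, stood at 2.13 and 1.31 at 5 h against a 0 h mean of -2.10, and at -0.85 and -2.28 at 24 h (-3.29, SE 0.74, adjusted p = 0.0313). Hspa1a, the inducible HSP70 gene, had a 0 h mean of -3.41, stood at 0.49 and -0.45 at 5 h and at -2.53 and -2.82 at 24 h (-2.69, SE 0.64, adjusted p = 0.0414). It was the only call among 19 genes of the heat shock and unfolded protein response, whose median was 0.10. The adjusted p rose to 0.381 for Il11 and 0.528 for Hspa1a without 5 h replicate 1, and to 0.391 for Il11 and 0.339 for Hspa1a without 24 h replicate 2. It was 0.0537 for Il11 and 0.0542 for Hspa1a without 5 h replicate 2, and 0.132 for Hspa1a without 24 h replicate 1.

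Immediate early genes respond within minutes to serum, handling and growth factors. AP-1 subunits of the FOS and JUN families are among them, and dnFOS binds JUN family proteins. Few of them passed the test. Of 27 immediate early genes, Egr2, above background on 1 of 2 arrays at 24 h, was called lower (-4.00, SE 0.77, adjusted p = 0.0125) and none higher, with a median of -0.48. Among 19 AP-1 subunit genes, Jdp2, which encodes the repressive JUN dimerization protein 2, was called higher. It stood at 1.52 and 1.16 at 5 h and at 3.53 and 3.51 at 24 h (2.18, SE 0.43, adjusted p = 0.0144), and the call was lost when any 1 of the 4 arrays was left out, with adjusted p between 0.0722 and 0.174. Fos stood at 1.21 and 2.00 at 5 h and at 3.07 and 2.73 at 24 h (1.29, 95% interval -0.44 to 3.03, adjusted p = 0.667). Jun differed by -0.22 (95% interval -1.41 to 0.97), with overlapping arrays. Fosl1, at 0.19 and 0.05 and then -1.70 and -2.29, had non-overlapping arrays but an adjusted p of 0.329, and passed only in the authors' processed values (0.0125). For Egr2, the adjusted p rose to 0.167 without 5 h replicate 1. It was 0.295 without 24 h replicate 2. The 14 FOS and JUN targets that the study named had no call and a median of 0.62. They were chosen by the study on samples of this series and are not independent evidence of a direction.

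Interferon response genes were among those that fell. Of 21 tested interferon response genes, 2 were called lower and none higher, with a median of -0.59. Both 24 h arrays lay below both 5 h arrays for 11 members and above them for 5, against 24% and 21.7% of all genes tested. Usp18, which encodes the protease that removes ISG15 from proteins, had a 0 h mean of 2.33, stood at 2.01 and 1.84 at 5 h and at -3.30 and -3.66 at 24 h (-5.40, SE 0.67, adjusted p = 0.000483). It kept its call with any 1 array left out. Ifitm1, a membrane protein gene of early mesoderm and germ cells as well as of the interferon response, stood at 6.03 and 5.85 and then at 3.60 and 3.05 (-2.62, SE 0.55, adjusted p = 0.0209). Isg15 itself, at -2.08, had an adjusted p of 0.2, with 0.0489 in the authors' processed values and 0.0333 with slide as a random block. For Ifitm1, the adjusted p rose to 0.233 without 5 h replicate 1, and to 0.288 without 24 h replicate 2. It was 0.0597 without 5 h replicate 2, and 0.0558 without 24 h replicate 1.

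Genes of the immunity-related GTPase family, which act against intracellular pathogens, were noticed after the values were seen. Of 5 tested, Igtp, Irgm2 and Tgtp2 were called lower. Igtp stood at 0.63 and -0.27 at 5 h and at -2.76 and -4.34 at 24 h (-3.73, SE 0.75, adjusted p = 0.0162). Igtp and Irgm2 were each above background on 1 of 2 arrays at 24 h. Irgm2 fell by 3.61 (adjusted p = 0.0463), Tgtp2 by 3.09 (adjusted p = 0.0316) and Ifi27 by 3.06 (adjusted p = 0.0281). With single arrays left out, the adjusted p was 0.271 for Igtp, 0.535 for Irgm2, 0.545 for Tgtp2 and 0.329 for Ifi27 without 5 h replicate 1, and 0.305 for Igtp, 0.37 for Irgm2, 0.399 for Tgtp2 and 0.293 for Ifi27 without 24 h replicate 2. It was 0.0639 for Irgm2 and 0.0542 for Ifi27 without 5 h replicate 2, and 0.124 for Irgm2 and 0.0762 for Ifi27 without 24 h replicate 1. The metallothionein genes Mt1 and Mt2, which bind zinc and lie next to each other, also fell together. Mt1 stood at 2.92 and 4.12 at 5 h and at -0.22 and -0.46 at 24 h (-3.86, SE 0.60, adjusted p = 0.00289), and Mt2 at 3.11 and 4.40 and then at 0.25 and 0.16 (-3.55, SE 0.64, adjusted p = 0.00834). Leaving out arrays one at a time raised the adjusted p to 0.0603 for Mt1 and 0.116 for Mt2 without 24 h replicate 2. It was 0.0676 for Mt2 without 5 h replicate 2.

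**Figure D3:**
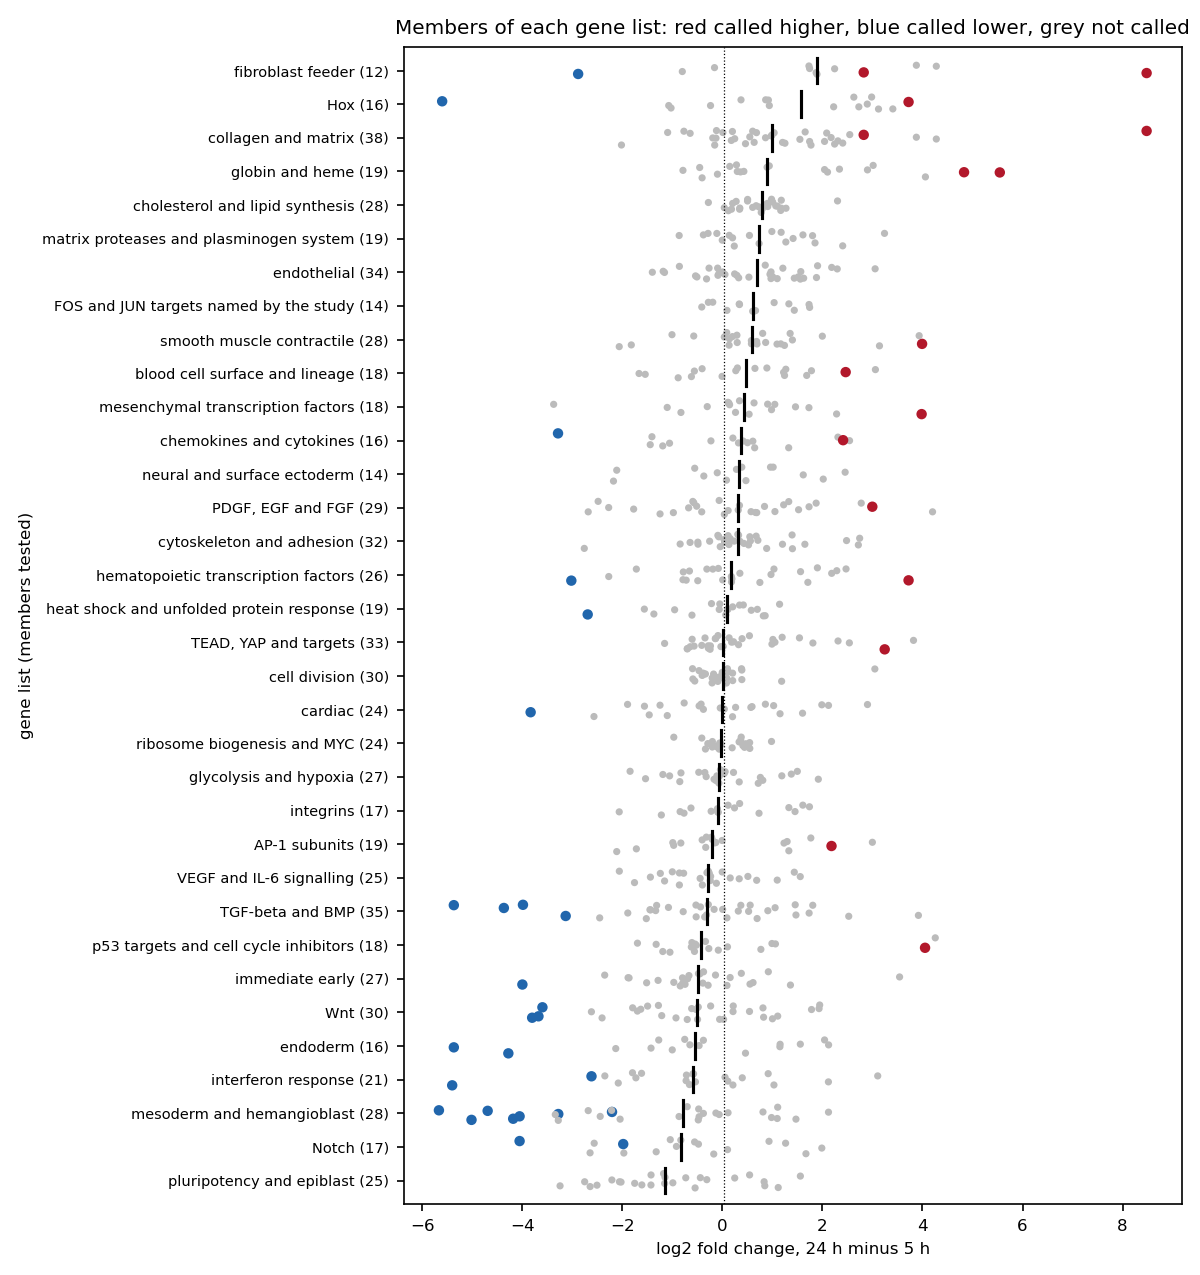
Log2 fold changes from 5 h to 24 h (horizontal axis) of the tested members of 34 gene lists (vertical axis, number tested in brackets, ordered by the list median, black bars). Red points were called higher, blue points lower and grey points were not called; the dotted line is the median of all genes tested, 0.04, and the 7 blue points of the mesoderm list are the largest group of calls in any list.

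Among rising genes, a single contractile gene passed the test. Acta2, which encodes smooth muscle alpha-actin, had a 0 h mean of 1.27, stood at 5.24 and 4.97 at 5 h and at 9.27 and 8.92 at 24 h (3.99, SE 0.67, adjusted p = 0.00477). Within the slide that held replicate 2 of both times the difference was 3.96. The adjusted p was 0.0697 without 5 h replicate 1 and 0.0603 without 24 h replicate 2. Acta2 was the only call among 28 tested smooth muscle genes, whose median was 0.59, with both 24 h arrays above both 5 h arrays for 16 of them and below for 3.

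The other smooth muscle markers took different courses. Tagln, which encodes SM22alpha, was already at 9.24 and 8.43 at 5 h and stood at 9.85 and 8.97 at 24 h (0.58, 95% interval -1.40 to 2.56, adjusted p = 0.951). Cnn1, which encodes calponin, was at 7.50 and 6.54 and then at 6.68 and 6.22 (-0.57, 95% interval -3.08 to 1.93, adjusted p = 0.966). In both, the arrays of the 2 times overlapped, and the 5 h levels were above the 0 h means of 6.08 and 4.11. The later markers Myh11, smooth muscle myosin heavy chain (3.14, adjusted p = 0.0744, above background on 1 of 2 arrays at 5 h), and Actg2, gamma-actin of enteric smooth muscle (3.93, adjusted p = 0.085), had non-overlapping arrays and missed the threshold. Myh11 passed it in the authors' processed values (adjusted p = 0.0345), with slide as a random block (0.0329), with the crossed replicate block (0.0476) and with array quality weights (0.0171). Actg2 passed it with normexp (adjusted p = 0.0379), slide as a random block (0.023), the crossed replicate block (0.0479), array quality weights (0.0074) and only the 4 arrays (0.0424).

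Postn, which encodes the matrix protein periostin of mesenchyme and smooth muscle, ranked first among rises by fitted change. It was not above background at 5 h, at -5.56 and -6.94, and stood at 1.60 and 2.86 at 24 h, at least 214-fold higher (adjusted p = 0.000483). It kept its call with any 1 array left out. Postn and Col1a2, a chain of type I collagen, were the 2 genes called higher among 38 tested genes of collagen and matrix, whose median was 0.98, with no gene called lower. Of the 38, 22 were non-overlapping upwards and 4 downwards. Col1a2 stood at -0.85 and -0.11 at 5 h and at 1.71 and 2.98 at 24 h (2.83, SE 0.62, adjusted p = 0.0285). Collagen genes outside the list, taken after their values were seen, were Col8a1, at least 10.2-fold higher (adjusted p = 0.0155), Col11a1 (4.40, adjusted p = 0.0312) and Col4a5 (3.32, adjusted p = 0.0313). The adjusted p of Col8a1 belongs to its fitted 4.83 (SE 0.97), which uses 5 h signal below background, and does not test its bound. Col3a1, at 3.88, missed the threshold (adjusted p = 0.0931) but passed it with slide as a random block (0.0386), the replicate block (0.0386), the crossed block (0.0302), array quality weights (0.00928) and only the 4 arrays (0.0462). Among fits that lacked 1 array, the adjusted p reached 0.356 for Col1a2, 0.112 for Col8a1, 0.345 for Col11a1 and 0.28 for Col4a5 without 5 h replicate 1, and 0.383 for Col1a2, 0.245 for Col8a1, 0.385 for Col11a1 and 0.319 for Col4a5 without 24 h replicate 2. It was 0.0772 for Col8a1, 0.0622 for Col11a1 and 0.0833 for Col4a5 without 5 h replicate 2, and 0.0831 for Col4a5 without 24 h replicate 1.

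Beside these rises, genes of the feeder fibroblasts on which the ESCs had been grown moved as follows. Of 12 tested list members, Postn and Col1a2 were called higher and Thy1 lower, and the summed linear signal of all 15, relative to the 75th percentile, was 17.7 and 15.3 at 5 h and 55.7 and 60.5 at 24 h. That sum includes Postn and Col1a2 themselves. The sum of the defining markers Dcn, Lum and Thy1 was 1.09 and 0.704 at 5 h and 0.447 and 0.279 at 24 h. Dcn (2.24, adjusted p = 0.746, above background on 1 of 2 arrays at 5 h) was not called, nor was Lum (adjusted p = 0.439, and 0.0419 with only the 4 arrays), which was above background on neither 5 h array and at least 6.04-fold higher at 24 h. Thy1 stood at -0.01 and -0.53 and then at -2.81 and -3.50 (-2.88, SE 0.63, adjusted p = 0.0273). The part of carried-over feeder cells in the matrix result was not tested. For Thy1, the adjusted p rose to 0.323 without 5 h replicate 1, and to 0.319 without 24 h replicate 2. It was 0.0545 without 5 h replicate 2, and 0.0607 without 24 h replicate 1.

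Other genes called higher are given one by one, since they were not a list and some were named after their values were seen. Angpt1, which encodes the mural ligand of the TIE2 receptor, was not above background at 5 h, at -6.88 and -6.80, and stood at -1.01 and 0.52 at 24 h, at least 38.4-fold higher (adjusted p = 0.000483). Gucy1b1, the beta subunit of soluble guanylate cyclase, the receptor for nitric oxide, stood at -4.44 and -3.43 at 5 h, where 1 of 2 arrays was above background, and at 0.91 and 1.67 at 24 h (5.23, SE 0.73, adjusted p = 0.00167). Its partner Gucy1a1, the alpha subunit, was above background on neither 5 h array and at least 8.30-fold higher. The adjusted p of 0.0156 for Gucy1a1 belongs to the fitted 4.43 (SE 0.89) and does not test this bound. Cavin2, which encodes a coat protein of caveolae, was at least 14.6-fold higher (adjusted p = 0.00141). Angpt1, Gucy1b1 and Cavin2 kept their call with any 1 array left out. Vcam1, an adhesion molecule of mural cells and endothelium, rose from -2.93 and -1.74 to 1.84 and 2.73 (4.62, SE 1.14, adjusted p = 0.0495), and Ednrb, the endothelin B receptor gene, by 3.77 (adjusted p = 0.01, above background on 1 of 2 arrays at 5 h). The adjusted p rose to 0.0956 for Gucy1a1, 0.526 for Vcam1 and 0.273 for Ednrb without 5 h replicate 1, and to 0.287 for Gucy1a1, 0.385 for Vcam1 and 0.0948 for Ednrb without 24 h replicate 2. It was 0.0854 for Gucy1a1 and 0.0768 for Vcam1 without 5 h replicate 2, and 0.124 for Vcam1 and 0.068 for Ednrb without 24 h replicate 1.

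By fitted change, the first 10 rises also held Megf10, Insc, Hbb-bh1, Olfr1317, Aoc1 and Olfr591. All but Hbb-bh1 were above background on neither 5 h array, so that their order is not established. Cxcr6, a chemokine receptor gene above background on all 4 arrays and named after its values were seen, rose 22.2-fold (adjusted p = 0.000483). Megf10, an engulfment receptor gene also active in muscle precursors, was at least 28.1-fold higher (adjusted p = 0.00237), Insc, the gene of the spindle orientation adaptor inscuteable, at least 14.7-fold (adjusted p = 0.00294), and Aoc1, the diamine oxidase gene, at least 13.6-fold (adjusted p = 0.00742). The 2 olfactory receptor genes were at least 12.7-fold and 12.4-fold higher (adjusted p = 0.0119 and 0.0113). With single arrays left out, the adjusted p was 0.0933 for Aoc1, 0.102 for Olfr1317 and 0.0697 for Olfr591 without 5 h replicate 1, and 0.0647 for Megf10, 0.0662 for Insc, 0.0534 for Aoc1, 0.183 for Olfr1317 and 0.209 for Olfr591 without 24 h replicate 2. It was 0.0623 for Olfr1317 and 0.0731 for Olfr591 without 5 h replicate 2, and 0.0671 for Aoc1 without 24 h replicate 1.

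Regulators of mesenchyme and of growth were few among the calls. Snai2, which encodes the transition factor SLUG, was the single call among 18 mesenchymal transcription factor genes. It stood at -1.68 and -0.91 at 5 h and at 2.38 and 2.99 at 24 h (3.98, SE 0.96, adjusted p = 0.0429). Cdkn2a, which encodes the cell cycle inhibitors p16INK4a and p19ARF, stood at -0.07 and -1.21 and then at 3.71 and 3.11 (4.05, SE 0.61, adjusted p = 0.00237), and kept its call with any 1 array left out. It was the single call among 18 p53 target and inhibitor genes. Igf2, a fetal growth factor gene, rose by 3.00 (SE 0.71, adjusted p = 0.0409), and Crim1, a transmembrane BMP modulator listed with the TEAD and YAP targets, by 3.24 (SE 0.52, adjusted p = 0.00316). Crim1 was the single call among 33 TEAD and YAP genes, whose median was 0.02. Tead4 itself stood at 2.75 and 1.74 at 5 h and at 1.49 and 0.69 at 24 h (-1.16, 95% interval -2.47 to 0.16, adjusted p = 0.56). Leaving out arrays one at a time raised the adjusted p to 0.442 for Snai2 and 0.65 for Igf2 without 5 h replicate 1, and to 0.356 for Snai2, 0.293 for Igf2 and 0.0919 for Crim1 without 24 h replicate 2. It was 0.0791 for Snai2 without 5 h replicate 2, and 0.121 for Snai2 and 0.163 for Igf2 without 24 h replicate 1.

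Among blood genes, an embryonic globin led. Hbb-bh1, the beta-like globin of primitive red cells, stood at -0.27 and -0.23 at 5 h, near its 0 h mean of -0.65, and at 4.30 and 6.30 at 24 h (5.55, SE 0.89, adjusted p = 0.0034). Epb42, a red cell membrane protein gene, was not above background at 5 h and at least 9.70-fold higher at 24 h (adjusted p = 0.00388). These were the 2 calls among 19 globin and heme genes, with a median of 0.89 and with 12 members non-overlapping upwards and 3 downwards. Hba-x, above background on neither 5 h array and at least 16.7-fold higher (adjusted p = 0.447), and Hbb-y (2.90, adjusted p = 0.348), also embryonic globins, had non-overlapping arrays with 24 h replicate 2 far above replicate 1. Among fits that lacked 1 array, the adjusted p reached 0.0697 for Hbb-bh1 and 0.0584 for Epb42 without 5 h replicate 1, and 0.112 for Hbb-bh1 without 24 h replicate 2. It was 0.0559 for Epb42 without 24 h replicate 1.

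Blood transcription factors showed few calls. Of 26 tested, Hoxb4 was called higher and Cebpa lower. Hoxb4 stood at -2.83 and -2.39 at 5 h and at 0.87 and 1.35 at 24 h (3.72, SE 0.56, adjusted p = 0.00237), and Cebpa was at least 6.55-fold lower (adjusted p = 0.0237). Runx1, the factor that blood emergence requires, stood at 1.63 and 1.45 and then at 2.00 and 1.44 (0.18, 95% interval -1.24 to 1.60). Tal1 differed by 0.01 (95% interval -2.03 to 2.04) and Gata2 by -0.08 (95% interval -2.42 to 2.26). Itga2b, which encodes CD41, differed by 1.24 (95% interval -1.09 to 3.57) and Kit by -0.88 (95% interval -2.45 to 0.68). Spi1 and Ptprc were not tested, since neither time had both arrays above background. Csf2rb, the common beta chain of cytokine receptors, was the single call among 18 tested blood surface and lineage genes (2.46, SE 0.60, adjusted p = 0.0442). One further probe of Csf2rb gave a difference of 0.93. Its call held in only 4 of the alternatives that left out no single array, against 17 for Hoxb4. The adjusted p rose to 0.437 for Csf2rb, 0.0659 for Hoxb4 and 0.273 for Cebpa without 5 h replicate 1, and to 0.44 for Csf2rb, 0.0614 for Hoxb4 and 0.226 for Cebpa without 24 h replicate 2. It was 0.0833 for Csf2rb and 0.0587 for Cebpa without 5 h replicate 2, and 0.108 for Cebpa without 24 h replicate 1.

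Hox genes lay on both sides. Of 16 tested, Hoxb4 was called higher and Hoxb1 lower, the median was 1.58, and 10 members were non-overlapping upwards and 3 downwards. Hoxb1, the most anterior gene of the cluster, stood at -1.44 and -0.74 at 5 h and was not above background at 24 h, at least 16.7-fold lower (adjusted p = 0.00237), and kept its call with any 1 array left out. Hoxb4 lost its call without 5 h replicate 1 (adjusted p = 0.0659) or 24 h replicate 2 (0.0614).

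None of 34 tested endothelial genes was called. Their median was 0.69, with 17 members non-overlapping upwards and 7 downwards. Tek, which encodes the TIE2 receptor of ANGPT1, stood at -3.04 and -2.30 at 5 h and at -0.78 and 1.55 at 24 h (3.05, 95% interval 0.47 to 5.64, adjusted p = 0.347). Cdh5, Pecam1 and Tie1, which define endothelium, differed by 1.90, 1.62 and 1.88, with adjusted p of 0.784, 0.554 and 0.574, and each had both 24 h arrays above both 5 h arrays. Kdr stood at 1.91 and 2.91 and then at 4.13 and 2.88 (1.10, 95% interval -0.62 to 2.81), and its 2 tested probes disagreed, with differences of 1.10 and -1.34. Pdgfra differed by -0.06 (95% interval -1.38 to 1.25).

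Of the other lists, the cardiac genes had a median of -0.0022, with both 24 h arrays above both 5 h arrays for 9 of 24 members and below them for 10. The 1 call was Isl1, a LIM homeobox gene of cardiac progenitors, which stood at 0.79 and -0.46 and then at -3.30 and -4.04 (-3.83, SE 0.58, adjusted p = 0.00237). Nkx2-5, a cardiac homeobox gene, differed by 1.99 (95% interval -0.11 to 4.08, adjusted p = 0.511) and Tnnt2, the cardiac troponin T gene, by 1.60 (95% interval -0.35 to 3.56, adjusted p = 0.612), both with 24 h arrays above 5 h arrays, and neither was called. The summed linear signal of the cardiac markers Nkx2-5, Tnnt2 and Myh6 was 4.46 and 4.37 at 5 h and 10.3 and 11.8 at 24 h. Among 16 endoderm genes the pioneer factor gene Foxa1 fell by 4.28 (SE 0.70, adjusted p = 0.00393), beside Cer1. Their median was -0.56, with 4 members above and 4 below on both 24 h arrays, and Foxa2 differed upwards by 1.15 without overlap (95% interval -1.20 to 3.50, adjusted p = 0.857). Among 16 chemokine and cytokine genes Ptgs2, the cyclooxygenase 2 gene, was called higher (2.41, SE 0.57, adjusted p = 0.0398) and Il11 lower. No gene was called among 30 of cell division (median 0.01), 24 of ribosome biogenesis and MYC (-0.03), 27 of glycolysis and hypoxia (-0.06), 32 of cytoskeleton and adhesion (0.32), 17 integrins (-0.08), 25 of VEGF and IL-6 signalling (-0.28), 19 matrix proteases (0.73) or 28 of cholesterol and lipid synthesis (0.79). Igf2 was the single call among 29 PDGF, EGF and FGF genes (0.32). With single arrays left out, the adjusted p was 0.0822 for Isl1, 0.102 for Foxa1 and 0.378 for Ptgs2 without 5 h replicate 1, and 0.0662 for Isl1, 0.0664 for Foxa1 and 0.331 for Ptgs2 without 24 h replicate 2. It was 0.083 for Ptgs2 without 5 h replicate 2, and 0.132 for Ptgs2 without 24 h replicate 1.

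The same step was looked at in the DOX-treated cultures, whose arrays did not enter the contrast but share the model's estimate of the spread. There, each replicate pair of 5 h and 24 h lay on 1 slide. Of the 130 genes called higher, 114 also had both DOX 24 h arrays above both DOX 5 h arrays, which held for 22.8% of all genes tested. Of the 207 called lower, 206 also had both DOX 24 h arrays below, against 18.1% of all genes tested. The median step with DOX was 2.64 for the first set and -3.13 for the second, against 3.51 and -3.47 without DOX, where the genes were chosen. With DOX the difference was 4.10 for Acta2, 4.85 for Hbb-bh1, -6.13 for Trh and -6.71 for Mesp1, and Postn, above background on neither DOX 5 h array, was at least 134-fold higher. Of the 104 genes with a symbol called higher, 7 had a step at or below 0 with DOX, namely Csf2rb, Fthl17f, Hmx3, Iqcf6, Olfr1317, Olfr591 and Spns3. Only 3 of these 7 were above background on both DOX arrays of a time, and Iqcf6 and Olfr1317 were above it on none, so that they have no measured step with DOX. No gene differed between the steps with and without DOX at an adjusted p under 0.05 (limma, 0% of 23439), and 267 (1.14%) had an unadjusted p under 0.05, a threshold that by itself admits 5% of tests.

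**Figure D4:**
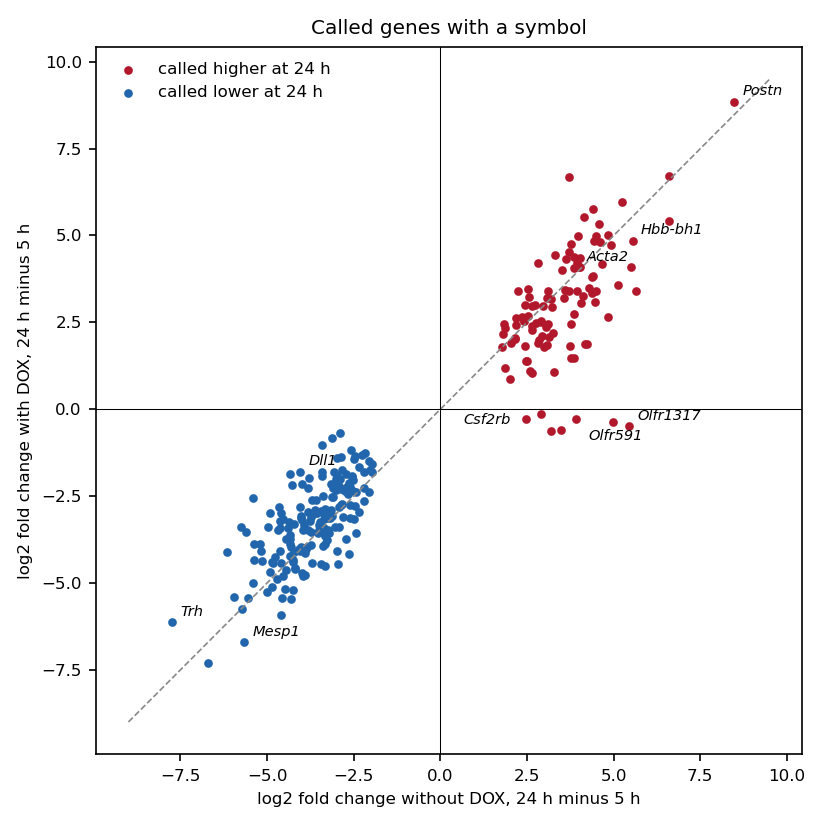
Log2 fold change from 5 h to 24 h with DOX (vertical axis) against that without DOX (horizontal axis) for the called genes with a symbol, 104 higher (red) and 178 lower (blue); the dashed line marks equal steps. The blue points all lie below 0 on the vertical axis, and 7 red points lie at or below 0.

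Promoters of the called genes were searched on both strands, in the 250 bases before each RefSeq start (GRCm38.p6), for the letters of known motifs. These were TGANTCA for AP-1, GGAATG for TEAD factors, AGATAA for the GATA family and the CArG box for SRF. The CArG box was counted only in its strict form, with nothing but A and T between CC and GG. Promoters were found for 73 of the 104 genes called higher, 140 of the 178 called lower and 11457 of the 14417 tested genes with a symbol. At least 1 promoter held the AP-1 letters in 15 of the 140 genes called lower (10.7%), in 1 of the 73 called higher (1.37%) and in 5.70% of tested genes. Over all 27025 genes with a promoter the share was 7.82%. The TEAD letters were in 18 of the 73 genes called higher (24.7%) and in 15 of the 140 called lower (10.7%), against 13.2% of tested and 14.4% of all genes. The GATA letters were in 10 (13.7%) and 13 (9.29%) genes, against 7.84% of tested and 11.4% of all genes. The CArG box was in 3 (4.11%) and 4 (2.86%), against 1.58% and 1.62%. Genes differ in their number of promoters, with 109 for the 73 genes called higher and 14531 for the 11457 tested. Counted by promoter (higher, lower, tested), the shares were 0.917%, 9.94% and 4.72% for AP-1 and 19.3%, 9.39% and 11.1% for TEAD. For GATA they were 10.1%, 7.18% and 6.53%, and for the CArG box 2.75%, 3.87% and 1.31%. These shares are counts of letters in called sets, with no test.

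Promoters of 6 genes described above are shown because each holds 1 such motif, in capitals, and because together they cover both directions of change. Il11 (chr7:4778142-4778391, minus strand, 1 of 2 starts) and Mt2 (chr8:94172368-94172617, plus strand) fell and hold AP-1 letters. Mesp1 (chr7:79793591-79793840, minus strand) fell and holds a CArG box. Acta2 (chr19:34255374-34255623, minus strand) and Crim1 (chr17:78199998-78200247, plus strand) rose and hold TEAD letters, and Epb42 (chr2:121036878-121037127, minus strand) rose and holds GATA letters on the opposite strand. Each is written 5′ to 3′ on the strand of its gene, ending at the base before the start.
Il11: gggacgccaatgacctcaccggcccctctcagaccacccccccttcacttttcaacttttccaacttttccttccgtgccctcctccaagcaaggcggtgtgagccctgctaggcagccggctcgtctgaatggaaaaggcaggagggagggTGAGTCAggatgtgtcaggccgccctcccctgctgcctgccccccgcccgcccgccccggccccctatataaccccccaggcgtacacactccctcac
Mt2: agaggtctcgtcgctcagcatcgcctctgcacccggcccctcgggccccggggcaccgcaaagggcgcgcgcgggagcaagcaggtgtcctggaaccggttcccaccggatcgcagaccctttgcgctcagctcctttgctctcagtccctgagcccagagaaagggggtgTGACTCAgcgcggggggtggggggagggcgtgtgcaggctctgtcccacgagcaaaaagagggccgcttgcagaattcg
Mesp1: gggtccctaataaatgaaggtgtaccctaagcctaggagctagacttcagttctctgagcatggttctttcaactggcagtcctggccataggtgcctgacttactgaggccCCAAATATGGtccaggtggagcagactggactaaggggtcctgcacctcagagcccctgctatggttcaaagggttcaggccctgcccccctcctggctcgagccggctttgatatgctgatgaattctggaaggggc
Acta2: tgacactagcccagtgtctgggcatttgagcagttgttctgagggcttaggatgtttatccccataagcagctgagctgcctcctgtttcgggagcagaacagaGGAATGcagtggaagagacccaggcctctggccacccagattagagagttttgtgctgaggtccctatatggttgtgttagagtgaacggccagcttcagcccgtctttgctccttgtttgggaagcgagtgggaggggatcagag
Crim1: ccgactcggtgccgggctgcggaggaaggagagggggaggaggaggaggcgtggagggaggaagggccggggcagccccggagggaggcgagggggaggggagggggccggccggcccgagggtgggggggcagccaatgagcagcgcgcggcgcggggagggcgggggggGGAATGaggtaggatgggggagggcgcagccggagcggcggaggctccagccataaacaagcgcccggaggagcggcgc
Epb42: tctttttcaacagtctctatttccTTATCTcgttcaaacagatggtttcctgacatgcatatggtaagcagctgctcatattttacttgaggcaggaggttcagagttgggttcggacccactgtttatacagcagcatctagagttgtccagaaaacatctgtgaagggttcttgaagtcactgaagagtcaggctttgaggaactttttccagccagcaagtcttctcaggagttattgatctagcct
Counted from the start, the AP-1 letters lie at -98 to -92 in Il11 and at -79 to -73 in Mt2, the CArG box of Mesp1 at -138 to -129, and the TEAD letters at -146 to -141 in Acta2 and at -79 to -74 in Crim1. The GATA letters of Epb42 lie at -226 to -221. A match says only that these letters stand in the window. Variants of a motif, such as a CArG box with another base inside, were not searched and may be present in any of these promoters.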

How the data were processed

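RNA of complete cultures was labelled with Cy3 and hybridised to one-colour Agilent mouse arrays. The deposited signal intensity of each spot had been background-subtracted and detrended by Agilent Feature Extraction (10.7.3.1 in the file headers, 10.7.1.1 per the labels), and was not scaled between arrays. The authors also deposited a table of log2 values, for which the scaling is not given in the sources used here. It was used as an alternative.

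Spots of a probe were averaged, and log2 intensity was taken minus the 75th percentile of each array. Of 37208 genes or transcripts on the array, 20145 had a symbol, and the rest were kept under their transcript name and counted as genes. Each was represented by its brightest probe, averaged over all 27 arrays. Of the 23439 tested, 14417 had a symbol. Group means were fitted over all 27 arrays with limma 3.58.1 (R 4.3.3), with 14 residual degrees of freedom, and p-values were adjusted by the Benjamini-Hochberg method over 23439 genes. The per-spot flags for signal well above background, deposited as 0 or 1, set the filter. A gene not above background on either array of a time is given as "at least N-fold", from the higher of its own signal and the lowest signal of probes well above background on each array. The number of arrays limits the precision. On simulated data for this comparison with 23439 genes, 51 of 100 genes changed by log2 3 and 3 of 100 changed by log2 1.5 were recovered.

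The genes, the 34 lists and the tests were chosen with earlier results of these data known. Genes were named where they mark the cell types studied, where they were among the 2 largest called rises or falls of a list, or where they were among the 10 largest rises or falls. Lefty2, Lhx1, Cdx1, Eomes, Mixl1, Bmp7, Sfrp5, Fosl1, Isg15, Mt1, Mt2, Hprt, Gucy1a1, Vcam1, Ednrb, Col3a1, Actg2, Hba-x, Hbb-y, Asb4, Cxcr6 Krt79, Sbsn, Dmkn, Sfn, Lamb3 and the immunity-related GTPase, Ifi27 and further collagen genes were named after their values were seen. Alternatives covered background correction, scaling, filter, probe summary, slide, replicate block, trend, weights, samples fitted, thresholds and each array left out.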

Additional observations from a re-analysis of the deposited data

Results flagged for a closer look

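Hprt, the gene at whose locus the dnFOS cassette lies, had both 24 h arrays below both 5 h arrays without DOX and above them with DOX. The difference from 5 h to 24 h was -1.25 without DOX and 0.97 with it. At both times its mean level was higher with DOX, at 3.69 against 2.28 at 5 h and at 4.66 against 1.03 at 24 h. The steps differed by -2.22, and the limma test of that difference did not pass its threshold (adjusted p = 1).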

How the results depend on the processing

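With 2 arrays for each time, the counts of calls moved with most choices. Against 130 genes called higher and 207 lower, there were 84 and 334 with median scaling, 205 and 480 in the authors' processed values, 86 and 136 with no filter, and 32 and 46 among genes well above background on all 4 arrays. There were 75 and 87 with slide as a fixed block (52 and 75 of them shared with the reported calls), 269 and 393 with slide as a random block, 405 and 608 with array quality weights, 60 and 87 with only the 4 arrays, 59 and 100 with only untreated arrays, and 33 and 55 at an adjusted p under 0.01. In the fixed block, 5 h replicate 1 adds nothing, since it was alone on its slide. Leaving out 1 array gave 15 to 239 genes higher and 16 to 100 lower. The difference between the steps without and with DOX was called for 0 genes, and for 0 to 4 genes with 1 array left out, the 4 being without 24 h replicate 1. The cause was not tested. With no array and no group left out, normexp, quantile normalization, mean of probes, mean-variance trend and no fold threshold gave both counts within 1.5 times, but not always of the same genes. Of the 130 and 207, normexp shared 59 and 120, quantile normalization 77 and 165, the mean of probes 111 and 195, and the trend 120 and 188.

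Arrays of the 2 times share replicate numbers, but deviations of same-numbered samples correlated at -0.16. The replicate block gave 162 genes higher and 218 lower, and the crossed pairing, added after seeing the data, gave 150 and 217.

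Of the values of single named genes, 1946 kept their direction and side of the threshold, 477 lost the call (66 genes), 31 gained it and 20 turned sign (9 genes). Among the calls held in few of the alternatives that left out no single array were Csf2rb (4), Jag2 (6), Bmp7 (7) and Snai2 (7). Trh, Usp18, Krt79 and Hoxb4 were called in 17. Signs turned only in genes that were not called. The log2 fold change of Kdr was -0.12 and that of Myh6 0.13 with the mean of all probes, and Nanog gave -0.090 with median scaling and -0.30 with slide as a fixed block. Pdgfra gave 0.0042 in the authors' processed values, Runx1 -0.16 with median scaling, and Tal1 -0.017 with quantile normalization and -0.33 with median scaling. With 1 array left out, it ranged from -0.17 to 1.67 for Gata1, from -0.24 to 0.080 for Gata2, from -0.59 to 0.16 for Jun, from -0.29 to 0.78 for Nanog, from -0.24 to 0.11 for Pdgfra, from -0.10 to 0.46 for Runx1 and from -0.44 to 0.45 for Tal1.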
